A study of Homo sapiens with 6 samples.

Results

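The glucose pathway genes described here are 37 genes of glucose uptake, glycolysis, lactate and pyruvate handling and the pentose phosphate pathway, named in a list. Of the 37, 34 were measured by a probe set that carries 1 gene symbol, out of 18417 genes tested in all. PGAM1 (phosphoglycerate mutase) was named only on 5 probe sets that carry several symbols, and the lactate carriers SLC16A1 and SLC16A3 had no named probe set, so those 3 are not analysed here. The cells were THP-1, an established human line grown from a monocytic leukaemia. The medium of both groups was RPMI supplemented with 0.05 mM 2-mercaptoethanol, 2.5 mM glutamate and 10% FBS. One group of 3 arrays held unstimulated cells. The other group of 3 arrays held cells given 200 nM PMA, a phorbol ester and activator of protein kinase C, for 3 days and then left without it for 3 days, which makes them macrophage-like. The labels leave it unsaid whether the replicates are separate cultures. The p-values therefore rest on the spread of these arrays alone, and that spread may be technical. All come from 1 cell line.

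Glycolysis splits glucose into pyruvate in the cytosol, and many of its steps can be carried out by alternative enzymes encoded by different genes. Glucose enters through facilitative carriers of the SLC2A family, hexokinases trap it as glucose 6-phosphate, and phosphofructokinase commits it to breakdown. Pyruvate then either becomes lactate or enters the mitochondrion through pyruvate dehydrogenase, which PDK kinases switch off. The pentose phosphate pathway draws on glucose 6-phosphate for NADPH and ribose. Macrophages are known for changing this metabolism with their activation state, and many glycolytic genes are targets of the hypoxia-inducible factors.

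Each array gave a log2 value per probe set, and array medians lay between 6.10 and 6.25. Of 8 markers listed for the monocytic line, 7 were measured, and they ranged from 4.63 to 12.76. The surface receptors ITGAM (log2 fold change 2.01 ± 0.12), CSF1R (1.94 ± 0.18) and CD14 (2.46 ± 0.53) rose, while the granule genes LYZ (−2.76 ± 0.13) and MPO (−1.10 ± 0.18) fell, and CD68 and SPI1 did not pass (± SE, n = 3 per group). CD14 held 7.51, 9.67 and 9.65 and then 11.56, 11.37 and 11.29, so that unstimulated replicate 1 lay 2.15 below the mean of the other unstimulated arrays, and its rise was 1.74 ± 0.11 without that array. The 19 measured markers of T, B, NK, erythroid, epithelial and fibroblast cells lay between 2.85 and 6.74 on all 6 arrays, with a median of 5.21 in unstimulated and 5.39 in PMA cells. Of these, NCAM1 and PDGFRB rose and CD79A fell; PDGFRB and CD79A each lost the call without any of 5 single arrays. Their part in the results below was not tested.

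The glucose pathway did not move as a block. By limma, at a Benjamini-Hochberg adjusted p under 0.05 over the 18417 genes, 4 of the 34 measured members rose, 8 fell and 22 did not pass. Over all genes tested, 26.4% passed, 13.2% higher and 13.2% lower, so the share of members that passed, 35.3%, was not far above that of genes in general. After centring the arrays on their medians, 61.8% of all called genes were higher, against 50.1% here, and 6 members rose and 7 fell. A change of at least 2-fold was passed by 2 members upwards (HK1 and PFKM) and 5 downwards (ALDOC, SLC2A5, PDK1, SLC2A9 and HK3), where 5.17% and 3.2% of all genes did so (8.37% in either direction). The median log2 fold change of the members was −0.05, against −0.03 over all genes. The 3 PMA values lay wholly above the 3 unstimulated values for 7 members and wholly below for 12, while 19.2% and 22% of all genes were so separated (41.2% in either direction). In bulk RNA, a change in RNA per cell and a change in the make-up of the cells cannot be told apart.

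**Figure D1:**
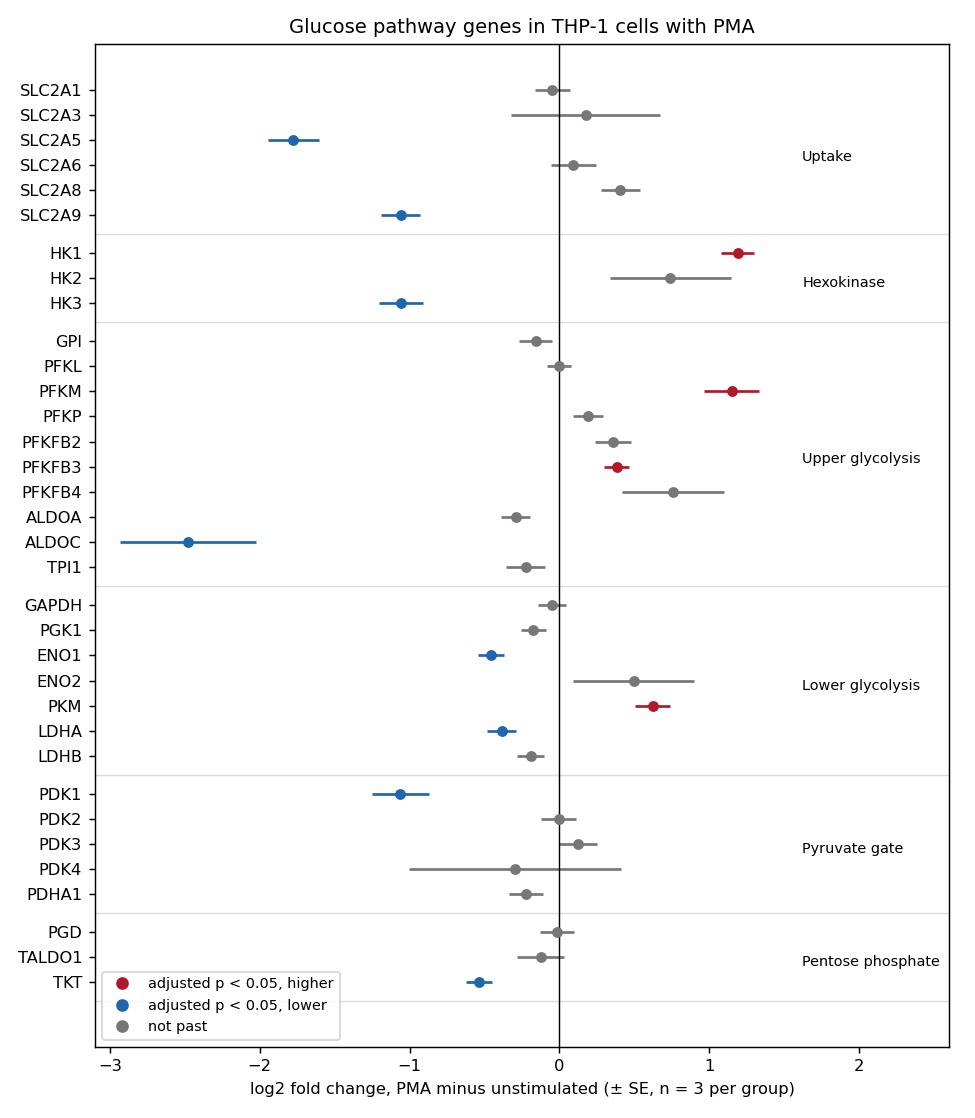
The points are log2 fold changes of the 34 measured members, PMA minus unstimulated, with bars of ± 1 SE from the limma fit (n = 3 arrays per group), ordered from uptake to the pentose phosphate pathway. The 4 members that rose are red and the 8 that fell are blue, with ALDOC at −2.48 and HK1 at 1.19 as the extremes.

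In the following, the 6 values of a gene are log2 values of replicates 1, 2 and 3 of a group, and a log2 fold change (PMA minus unstimulated) is given with the limma standard error, n = 3 per group. All 34 members lay above the lower quartile of every array (4.46 to 4.57), and the lowest single value was 4.98, for PFKFB2. Markers of other lineages reached 6.74, so a value under that does not show that a gene was expressed. Among such values were all those of PFKFB2 and of the marker MPO. The unstimulated values of PFKM and the PMA values of HK3 lay under it too. Probe sets differ in brightness, so a level of one gene is not read against that of another.

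Among the 6 glucose transporters, 2 fell and none rose. SLC2A5, the fructose carrier GLUT5, held 9.54, 9.56 and 9.53 in unstimulated cells and 8.16, 7.69 and 7.45 with PMA. The unstimulated values were nearly identical and every PMA array lay more than a log2 unit below them. The fall was 3.43-fold (−1.78 ± 0.17, adjusted p = 0.000259). SLC2A9, a carrier best known for moving urate, held 9.58, 9.29 and 9.35 and then 8.39, 8.14 and 8.52, a fall of 2.08-fold (−1.06 ± 0.13, adjusted p = 0.000861). The groups did not overlap for either gene. SLC2A1, the widely expressed carrier GLUT1, held 11.54, 11.59 and 11.69 against 11.61, 11.73 and 11.34. Its groups overlapped, and its difference of −0.05 had a 95% interval of −0.32 to 0.23 (adjusted p = 0.832). SLC2A6, a carrier of the lysosomal membrane, also overlapped (0.09 ± 0.15, adjusted p = 0.721). SLC2A8, an intracellular carrier, held 7.00, 6.59 and 6.79 and then 7.05, 7.21 and 7.33. It missed the threshold (0.41 ± 0.13, adjusted p = 0.0563) although every PMA value was above every unstimulated one, and it passed when arrays were rescaled in any of 3 ways (adjusted p 0.0226 to 0.0341) and without unstimulated replicate 1 (0.0234).

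SLC2A3, the high-affinity carrier GLUT3, turned on a single array. It held 6.60, 8.52 and 8.70 in unstimulated cells and 8.12, 8.30 and 7.92 with PMA. Unstimulated replicate 1 was the lowest of the 6 arrays and the other unstimulated arrays were the 2 highest. Over all arrays the difference did not pass (0.18 ± 0.50, adjusted p = 0.849), and without unstimulated replicate 1 it passed as a fall (−0.49, adjusted p = 0.0382). SLC2A3 has a near-identical neighbour, SLC2A14, so its probe set may share signal with it; SLC2A14 did not pass (−0.39 ± 0.19, adjusted p = 0.184) and, like SLC2A3, passed as a fall without unstimulated replicate 1 (−0.59, adjusted p = 0.0251).

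The 3 hexokinases, which phosphorylate glucose on entry, went different ways. HK1, the broadly expressed form that binds mitochondria, held 6.92, 6.87 and 7.01 in unstimulated cells and 8.17, 8.26 and 7.94 with PMA. All PMA arrays were above all unstimulated arrays, and the rise was 2.28-fold (1.19 ± 0.11, adjusted p = 0.000204). HK3, a form found in myeloid cells, held 6.57, 7.06 and 6.94 and then 5.82, 5.64 and 5.95. It fell 2.08-fold (−1.06 ± 0.15, adjusted p = 0.00156), again with no overlap. HK2, the inducible form, held 8.31, 9.24 and 9.23 and then 9.94, 10.28 and 8.77. Its PMA replicates 1 and 2 were the highest of the 6 arrays, while PMA replicate 3 lay below unstimulated replicates 2 and 3. It did not pass (0.74 ± 0.41, adjusted p = 0.241); without PMA replicate 3 it passed as a rise (1.19, adjusted p = 0.0152).

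The steps around phosphofructokinase held 2 of the 4 rises. PFKM, the muscle-type subunit, held 5.75, 5.66 and 5.64 in unstimulated cells and 7.17, 6.94 and 6.40 with PMA. The lowest PMA array, replicate 3, was still above every unstimulated array, and the rise was 2.22-fold (1.15 ± 0.18, adjusted p = 0.00299). The liver-type subunit PFKL stayed between 9.38 and 9.47 on all 6 arrays, and its 95% interval was −0.19 to 0.19. The platelet-type subunit PFKP held 8.57, 8.59 and 8.64 and then 8.79, 8.93 and 8.65 (0.19 ± 0.10, adjusted p = 0.219). The PFKFB enzymes make and break fructose 2,6-bisphosphate, which activates phosphofructokinase. PFKFB3, the form with the strongest kinase activity, rose by a small but even amount, from 7.27, 7.16 and 7.24 to 7.57, 7.60 and 7.64 (1.30-fold, 0.38 ± 0.08, adjusted p = 0.0124). PFKFB2 held 5.18, 5.26 and 4.98 and then 5.69, 5.41 and 5.39. It missed the threshold (0.35 ± 0.12, adjusted p = 0.0673) and passed under each of the 3 rescalings (0.0382 to 0.0396). PFKFB4 held 6.82, 7.74 and 7.75 and then 8.57, 8.49 and 7.51. Its pattern over the arrays was that of HK2, with unstimulated replicate 1 and PMA replicate 3 low in their groups. It did not pass (0.76 ± 0.34, adjusted p = 0.153) and did so without PMA replicate 3 (1.10, adjusted p = 0.0179).

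The 2 aldolases differed in the size of their change. ALDOC, the brain-type aldolase, held 8.35, 9.88 and 10.00 in unstimulated cells and 7.01, 7.45 and 6.33 with PMA. It had the largest change of all 34 members, a 5.57-fold fall (−2.48 ± 0.45, adjusted p = 0.00559), and also one of the widest spreads, since unstimulated replicate 1 lay 1.59 below the mean of the other unstimulated arrays. The groups did not overlap. When tested with its own variance alone it did not pass (adjusted p = 0.0776). ALDOA, the main aldolase of most tissues, held 10.67, 10.66 and 10.67 and then 10.47, 10.43 and 10.23. Its groups did not overlap either, and it missed the threshold (−0.29 ± 0.10, adjusted p = 0.0631).

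**Figure D2:**
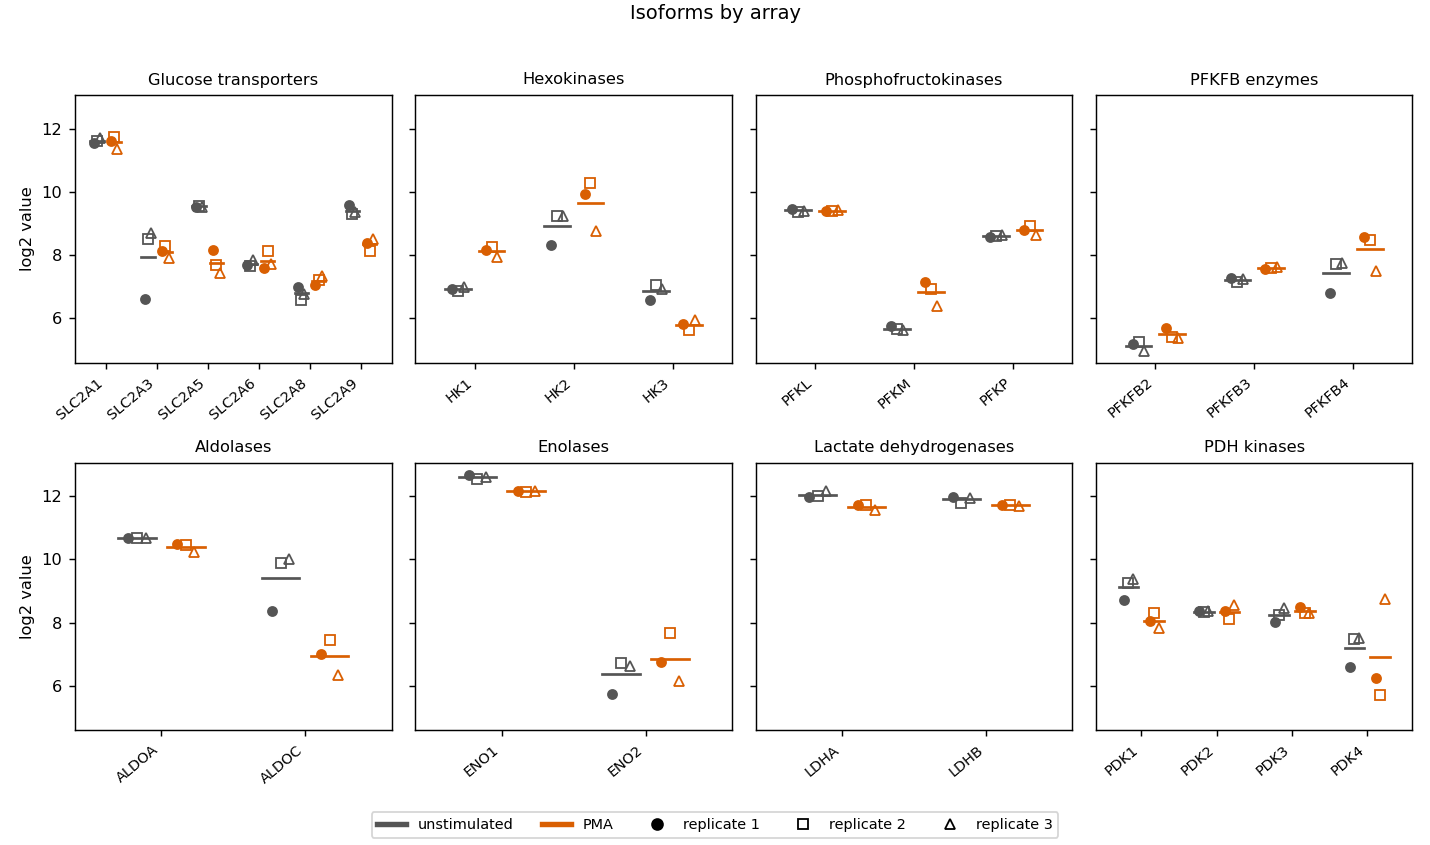
Each panel shows a family of members, with the log2 value of every array (replicate 1 filled circle, 2 square, 3 triangle) and the group mean as a bar, unstimulated in grey and PMA in orange. Of members past a 2-fold change, HK1 and PFKM were above, and SLC2A5, SLC2A9, HK3, ALDOC and PDK1 below, all unstimulated arrays. Some members with smaller changes, such as PFKFB3 and ENO1, did not overlap either. Unstimulated replicate 1 stood low for SLC2A3 (6.60) and ALDOC (8.35), and PMA replicate 3 high for PDK4 (8.73).

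None of the genes measured for 4 further steps passed, and the groups overlapped for all of them but PGK1. GPI, which interconverts glucose and fructose 6-phosphate (−0.16 ± 0.11), the triose isomerase TPI1 (−0.23 ± 0.13), GAPDH (−0.05 ± 0.09) and the kinase PGK1 (−0.17 ± 0.08) had adjusted p-values from 0.175 to 0.761. GAPDH, often used as a reference gene, held 13.12, 13.03 and 13.12 and then 13.12, 13.07 and 12.93, with a 95% interval of −0.27 to 0.17.

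The last steps moved in opposite directions. PKM, the pyruvate kinase gene of most tissues, held 11.32, 11.31 and 11.34 in unstimulated cells and 12.14, 11.97 and 11.73 with PMA. The groups did not overlap and the rise was 1.54-fold (0.62 ± 0.12, adjusted p = 0.00602). A single probe set stood for the gene, so its M1 and M2 splice forms are not told apart here. ENO1, the general enolase one step earlier, fell 1.37-fold, from 12.67, 12.53 and 12.60 to 12.16, 12.12 and 12.15 (−0.46 ± 0.09, adjusted p = 0.00601). ENO2, the neuronal enolase, held 5.73, 6.73 and 6.62 and then 6.75, 7.68 and 6.14. Its groups overlapped (0.50 ± 0.40, adjusted p = 0.442). LDHA, which turns pyruvate into lactate, held 11.97, 12.00 and 12.15 and then 11.71, 11.71 and 11.56. It fell 1.30-fold (−0.38 ± 0.10, adjusted p = 0.0221). That call was lost under 2 of the 3 rescalings (arrays centred on their medians, 0.0734; cyclic loess, 0.0624) and without unstimulated replicate 2 (0.0546), unstimulated replicate 3 (0.0826), PMA replicate 1 (0.0575) or PMA replicate 3 (0.0559). LDHB, the heart-type subunit, held 11.96, 11.79 and 11.94 and then 11.72, 11.72 and 11.68 and did not pass (−0.19 ± 0.09, adjusted p = 0.165).

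Of the 4 PDK kinases, which phosphorylate and shut off pyruvate dehydrogenase, PDK1 fell. It held 8.72, 9.25 and 9.39 in unstimulated cells and 8.05, 8.29 and 7.82 with PMA, a 2.09-fold fall with no overlap (−1.06 ± 0.19, adjusted p = 0.00541; 0.0662 when tested with its own variance alone). PDK2 (−0.01 ± 0.12, adjusted p = 0.979) and PDK3 (0.12 ± 0.13, adjusted p = 0.564) overlapped between the groups. PDK4, the form induced by fasting and fatty acids, held 6.60, 7.49 and 7.51 and then 6.26, 5.72 and 8.73. PMA replicate 3 was the highest of all 6 arrays and the other PMA arrays were the 2 lowest. Over all arrays it did not pass (−0.30 ± 0.71, adjusted p = 0.819), and without PMA replicate 3 it passed as a fall (−1.21, adjusted p = 0.0161). PDHA1, the dehydrogenase subunit that the kinases phosphorylate, held 9.14, 8.79 and 8.86 and then 8.72, 8.64 and 8.76 (−0.23 ± 0.11, adjusted p = 0.202).

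In the pentose phosphate pathway, TKT (transketolase), which shuttles carbon between sugars in its non-oxidative arm, fell 1.45-fold. It held 9.83, 9.87 and 9.93 in unstimulated cells and 9.35, 9.39 and 9.27 with PMA (−0.54 ± 0.09, adjusted p = 0.00295). Its partner TALDO1 (transaldolase; −0.12 ± 0.16, adjusted p = 0.644) and the oxidative enzyme PGD (−0.01 ± 0.11, adjusted p = 0.949) overlapped between the groups.

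To compare alternative forms directly, the difference of 2 family members was taken within each array, which cancels any shift of the whole array, and was compared between groups for all 33 measurable pairs inside a family. The groups did not overlap for 17 of the 33 pairs. The same held for 48.5% of all pairs that can be formed from the 18417 genes, so the count is a description and not particular to these families. With 3 arrays against 3, the two-sided exact permutation test over arrays cannot give a p below 0.1, so none could pass; the 17 separated pairs had p = 0.1 (0.194 after Benjamini-Hochberg adjustment over the 33). The pairs share genes and are not independent. The largest shift was HK1 over HK3: the log2 difference was 0.35, −0.19 and 0.07 in unstimulated cells and 2.35, 2.61 and 2.00 with PMA, a 4.74-fold change of the ratio. The PMA values of HK3 lay under the 6.74 reached by markers of other lineages, which limits this ratio and that of HK2 over HK3. HK2 over HK3 also separated, from 1.73, 2.18 and 2.29 to 4.12, 4.64 and 2.82, whereas HK1 over HK2 overlapped. ALDOA over ALDOC went from 2.32, 0.79 and 0.68 to 3.46, 2.99 and 3.90, a 4.55-fold change with no overlap. SLC2A5 lost ground to SLC2A8 by 4.54-fold, from 2.54, 2.97 and 2.75 to 1.11, 0.48 and 0.11. SLC2A1 over SLC2A5 went from 2.01, 2.04 and 2.15 to 3.46, 4.04 and 3.89 (3.32-fold). PFKL over PFKM fell from 3.71, 3.72 and 3.76 to 2.23, 2.47 and 3.04 (2.22-fold), with the unstimulated values of PFKM under 6.74. PDK1 fell against PDK3, from 0.69, 1.00 and 0.94 to −0.44, −0.01 and −0.47 (2.27-fold), and against PDK2 (2.08-fold). None of the 3 PFKFB pairs, and neither ENO1 over ENO2 nor any pair with PDK4, separated the groups.

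A set of members varied inside the groups. Unstimulated replicate 1 lay at least 0.5 below the mean of the other unstimulated arrays for 7 of the 34 members and at least 0.5 above for 0, where 4.09% and 4.01% of all genes did so. The 7 were SLC2A3 (−2.01), ALDOC (−1.59), ENO2 (−0.95), HK2 (−0.92), PFKFB4 (−0.92), PDK4 (−0.89) and PDK1 (−0.60). PMA replicate 3 lay at least 0.5 below the other PMA arrays for 5 members, HK2 (−1.34), ENO2 (−1.07), PFKFB4 (−1.02), ALDOC (−0.90) and PFKM (−0.65), where 4.48% of all genes did so. It lay at least 0.5 above them for 1 member, PDK4 (2.74), where 3.59% of all genes did so. Of the 19 markers of other lineages, none deviated by 0.5 on unstimulated replicate 1, and the T cell receptor chains CD3G (0.86) and CD3D (0.62) were higher on PMA replicate 3, at values of 5.50 and 5.41. HK2, PFKFB4, ENO2 and ALDOC were thus low on both arrays. Genes known as targets of the hypoxia-inducible factors but with no part in glycolysis showed the first pattern more widely: of 18 measured, 13 lay at least 0.5 lower on unstimulated replicate 1 and 0 higher, with a median deviation of −0.80. Examples are the growth factor VEGFA (−1.54), the transcription factor BHLHE40 (−1.48) and the stress gene NDRG1 (−1.20). On PMA replicate 3, 4 of the 18 were at least 0.5 lower, among them VEGFA (−2.38) and NDRG1 (−1.51), and 2 were higher, PLIN2 (0.91) and HMOX1 (0.78). The part of the culture, the RNA or the array in these differences was not tested.

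**Figure D3:**
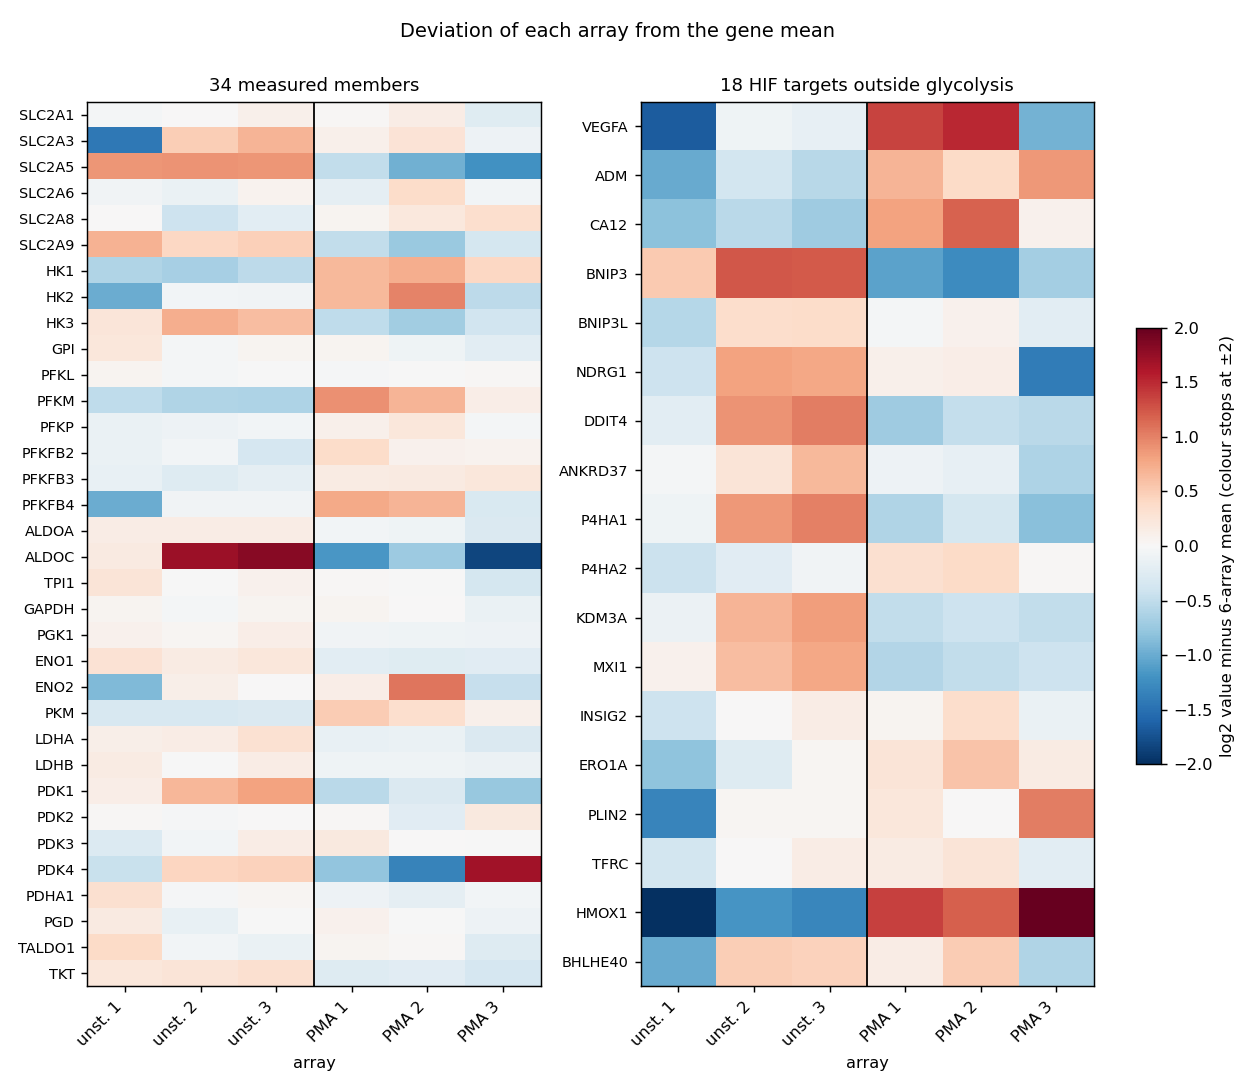
Colours give the log2 value of each array minus the gene's mean over the 6 arrays, for the 34 measured members (left) and 18 targets of the hypoxia-inducible factors outside glycolysis (right); the black line parts the 3 unstimulated from the 3 PMA arrays. Unstimulated replicate 1 is at least 0.5 lower than the mean of its fellows for 7 members and 13 of the 18 targets. Among the PMA arrays, PDK4 is high on replicate 3 alone.

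Printed here are promoters of the members that lay at least 0.5 below the other unstimulated arrays on unstimulated replicate 1. They are given for those with a window in the RefSeq promoter table (GRCh38.p14, windows of 300 bases that span a start). The genes were picked by that array, so their shared direction on it follows from the choice. On PMA replicate 3 they did not all go the same way. Capitals mark ACGTG and GCGTG, the core of the hypoxia response element, searched on both strands (CACGT and CACGC on the other strand; ACGTG also lies inside the E-box CACGTG). The windows are ALDOC at chr17:28576846-28577145 (minus strand), ENO2 at chr12:6914330-6914629 (plus), PFKFB4 at chr3:48556754-48557053 (minus) and PDK4 at chr7:95596467-95596766 (minus). HK2 has 2 windows, at chr2:74833877-74834176 and chr2:74834920-74835219 (plus), and PDK1 has 2, at chr2:172555123-172555422 and chr2:172555840-172556139 (plus).
ALDOC: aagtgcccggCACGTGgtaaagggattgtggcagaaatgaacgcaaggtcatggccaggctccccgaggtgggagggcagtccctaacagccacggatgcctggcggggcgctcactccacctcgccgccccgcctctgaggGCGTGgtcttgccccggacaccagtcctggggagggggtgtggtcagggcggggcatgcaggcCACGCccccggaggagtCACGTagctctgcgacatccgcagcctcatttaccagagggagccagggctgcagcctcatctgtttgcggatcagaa
ENO2: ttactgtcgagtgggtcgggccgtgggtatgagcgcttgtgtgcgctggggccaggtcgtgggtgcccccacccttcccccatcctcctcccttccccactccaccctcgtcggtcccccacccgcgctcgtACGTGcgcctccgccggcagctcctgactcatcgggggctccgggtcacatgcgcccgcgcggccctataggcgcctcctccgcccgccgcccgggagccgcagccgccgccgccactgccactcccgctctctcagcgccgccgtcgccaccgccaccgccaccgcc
PFKFB4: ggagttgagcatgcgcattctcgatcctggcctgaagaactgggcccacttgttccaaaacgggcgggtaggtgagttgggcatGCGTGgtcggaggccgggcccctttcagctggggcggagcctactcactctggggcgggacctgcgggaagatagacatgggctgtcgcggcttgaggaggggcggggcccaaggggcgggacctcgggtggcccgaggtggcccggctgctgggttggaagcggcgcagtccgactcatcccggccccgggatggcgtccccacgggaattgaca
HK2, first start: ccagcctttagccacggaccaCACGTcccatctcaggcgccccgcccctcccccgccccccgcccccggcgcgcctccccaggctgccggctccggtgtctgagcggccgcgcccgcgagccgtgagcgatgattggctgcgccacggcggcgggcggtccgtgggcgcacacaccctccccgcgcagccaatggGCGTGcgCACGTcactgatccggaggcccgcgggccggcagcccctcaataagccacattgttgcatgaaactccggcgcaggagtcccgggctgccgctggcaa
HK2, second start: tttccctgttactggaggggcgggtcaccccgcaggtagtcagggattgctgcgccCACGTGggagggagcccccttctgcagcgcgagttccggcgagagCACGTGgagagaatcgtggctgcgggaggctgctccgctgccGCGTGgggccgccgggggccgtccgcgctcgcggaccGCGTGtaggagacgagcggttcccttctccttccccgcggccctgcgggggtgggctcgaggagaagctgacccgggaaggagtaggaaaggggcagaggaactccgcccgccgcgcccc
PDK1, first start: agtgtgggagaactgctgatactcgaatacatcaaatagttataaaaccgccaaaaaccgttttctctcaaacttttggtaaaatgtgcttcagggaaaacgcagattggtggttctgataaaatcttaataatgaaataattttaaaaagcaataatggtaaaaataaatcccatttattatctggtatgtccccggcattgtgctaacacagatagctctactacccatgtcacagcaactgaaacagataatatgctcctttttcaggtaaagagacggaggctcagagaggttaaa
PDK1, second start: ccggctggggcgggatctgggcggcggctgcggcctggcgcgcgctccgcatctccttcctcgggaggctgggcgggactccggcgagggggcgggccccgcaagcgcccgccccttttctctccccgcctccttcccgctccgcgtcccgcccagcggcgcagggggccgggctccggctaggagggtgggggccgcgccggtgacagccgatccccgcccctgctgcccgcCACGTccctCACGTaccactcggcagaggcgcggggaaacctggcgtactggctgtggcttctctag
PDK4: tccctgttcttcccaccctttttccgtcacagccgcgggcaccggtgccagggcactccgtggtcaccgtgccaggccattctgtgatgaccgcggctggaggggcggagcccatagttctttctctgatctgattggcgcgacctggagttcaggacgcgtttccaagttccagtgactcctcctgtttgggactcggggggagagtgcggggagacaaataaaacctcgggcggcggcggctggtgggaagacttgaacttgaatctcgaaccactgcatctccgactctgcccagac
A CACGTG holds the core on both strands and was counted as 2 matches, so matches can outnumber the stretches in capitals. ALDOC held 5 matches, HK2 held 3 and 6 at its 2 starts, PDK1 held 0 and 2, ENO2 and PFKFB4 held 1 each and PDK4 held 0. Such matches are common: 48.4% of the 35116 windows in the table hold at least 1, and 38 of the 63 windows of the members (60.3%) do. Of the 34 listed members with a window, measured or not, 28 held a match in at least 1 of their windows. Genes differ in their number of windows, and no share per gene was taken over all genes. The 28 therefore cannot be set against the 48.4% of windows. LDHA, whose deviation on unstimulated replicate 1 was −0.11, held 6 at one of its starts. Whether matches go with the deviations of the arrays was not tested. The E-box CACGTG was in 7 of the 63 windows (11.1%), against 7.26% of all windows. A match is a description of the letters and not a site.

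Lists of other genes of glucose metabolism give the surroundings of these changes. Of 39 further measured genes of glycolysis, gluconeogenesis and the pentose phosphate pathway, 2 rose and 12 fell, with a median log2 fold change of −0.10. That is 35.9% past the threshold, against 26.4% of all genes tested. FBP1, the gluconeogenic phosphatase that opposes phosphofructokinase, held 9.43, 8.39 and 8.59 in unstimulated cells and 6.46, 6.35 and 5.94 with PMA, and fell by 2.55 ± 0.27 on the log2 scale (adjusted p = 0.000410). TIGAR, which degrades fructose 2,6-bisphosphate, rose (1.33 ± 0.18, adjusted p = 0.00138). It held 5.73, 4.97 and 5.35 and then 6.74, 6.57 and 6.74. All of these lay under the highest value of the markers of other lineages, so they do not show that TIGAR was expressed. PGM1, which links glucose 6-phosphate to glycogen, fell (−1.44 ± 0.12), as did the D-lactate dehydrogenase LDHD (−0.74 ± 0.12). BPGM, which makes 2,3-bisphosphoglycerate, rose (0.67 ± 0.21, adjusted p = 0.0479) and lost its call without unstimulated replicate 2, unstimulated replicate 3, PMA replicate 1 or PMA replicate 2 (adjusted p 0.123 to 0.162). The number that fell was 7 with arrays centred on their medians and 7 without unstimulated replicate 2 or 3.

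At the entry of pyruvate into mitochondria, 3 of 9 measured genes rose and 1 fell (44.4% past the threshold, against 26.4% of all genes tested). PC (pyruvate carboxylase), which feeds pyruvate into oxaloacetate, held 6.15, 6.07 and 6.21 and then 7.74, 7.57 and 7.40 (1.43 ± 0.11, adjusted p = 8.77e-05). PDP1, the phosphatase that reverses the action of the PDK kinases, held 8.68, 9.09 and 9.23 and then 10.61, 10.77 and 9.82 (1.41 ± 0.25, adjusted p = 0.00525). Both had all PMA arrays above all unstimulated arrays. The dehydrogenase subunit DLD fell (−0.59 ± 0.11). Beside them stands the fall of PDK1 given above.

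Glycogen genes passed most often of these lists, with 2 of 9 higher and 5 lower (77.8% past the threshold, against 26.4% of all genes tested). The liver-type phosphorylase PYGL fell (−1.21 ± 0.09, adjusted p = 5.98e-05), from 10.68, 10.55 and 10.61 to 9.44, 9.38 and 9.38. The brain-type phosphorylase PYGB rose (1.04 ± 0.14, adjusted p = 0.00135), from 8.51, 8.01 and 8.10 to 9.20, 9.21 and 9.33. The groups did not overlap for either form. The phosphorylase kinase subunit PHKA2 (−1.06 ± 0.10), the synthase GYS1 (−0.70 ± 0.12), the branching enzyme GBE1 (−1.29 ± 0.30) and UGP2, which makes UDP-glucose (−0.59 ± 0.13), fell. GBE1 lost its call without unstimulated replicate 2, unstimulated replicate 3 or PMA replicate 1, and UGP2 without any of these or PMA replicate 2 (adjusted p 0.0503 to 0.0693). Without unstimulated replicate 2, unstimulated replicate 3 or PMA replicate 1, 3 glycogen genes fell and 1 rose, and without PMA replicate 3, 5 fell and 1 rose. Of 6 genes of fructose, galactose and mannose entry, none rose and 2 fell (33.3% past the threshold, against 26.4% of all genes tested). The dihydroxyacetone kinase TKFC was lowest (−0.76 ± 0.12, adjusted p = 0.00247). In this list 1 fell with arrays centred on their medians, and 1 without any single array other than PMA replicate 3.

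**Figure D4:**
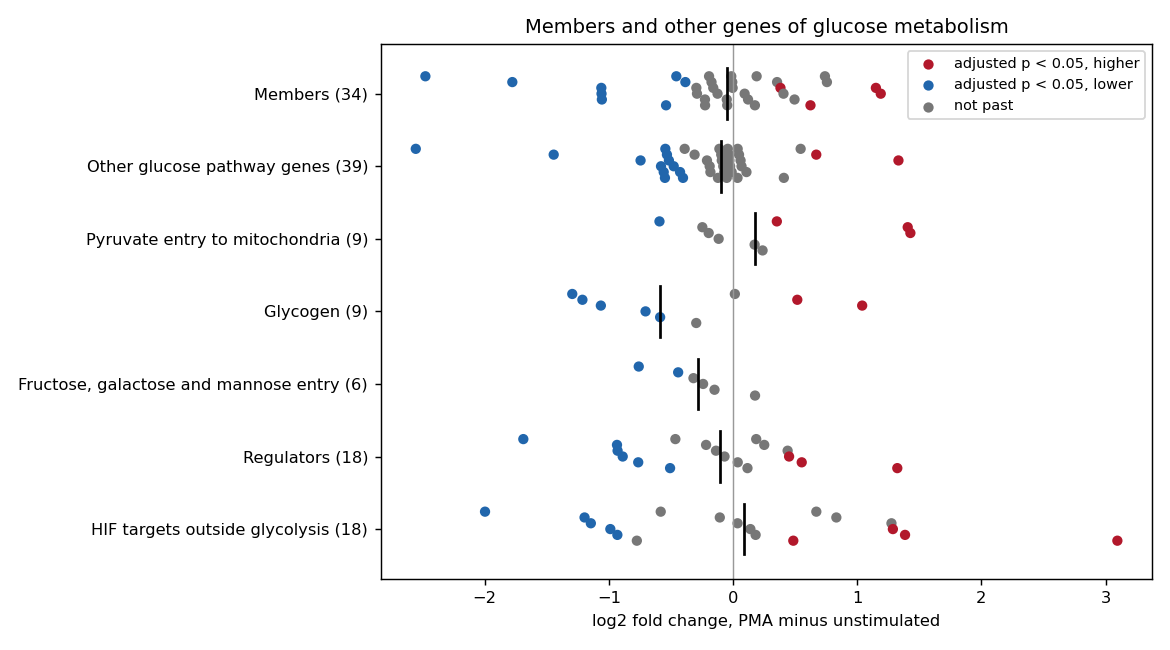
Each point is the log2 fold change of a gene, PMA minus unstimulated, for the 34 members and 6 other lists (number of measured genes in brackets), red or blue where limma's adjusted p was under 0.05, with the list's median as a black line. Members and the other lists spread to both sides of 0, and the glycogen list has the lowest median (−0.59).

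Among 18 measured regulators of the pathway, 3 rose and 6 fell (50% past the threshold, against 26.4% of all genes tested). HIF1A, the oxygen-labile subunit of hypoxia-inducible factor 1, held 9.81, 9.95 and 10.05 in unstimulated cells and 11.27, 11.25 and 11.24 with PMA. All PMA arrays were more than a log2 unit above the unstimulated ones (1.32 ± 0.09, adjusted p = 6.35e-05). EPAS1, the related HIF-2 alpha subunit, held 8.52, 8.53 and 8.55 and then 7.31, 7.18 and 8.31. It fell (−0.93 ± 0.27, adjusted p = 0.0375), with PMA replicate 3 standing close to the unstimulated arrays. It lost its call without any array except that one (adjusted p 0.0739 to 0.134) and with cyclic loess (0.0533). Of the prolyl hydroxylases that mark HIF for destruction, EGLN1 fell by 0.93 ± 0.20 and EGLN3 by 1.69 ± 0.39 on the log2 scale. The listed hydroxylase EGLN2 was not measured. EGLN3 lost its call without unstimulated replicate 2 (adjusted p = 0.0682) or PMA replicate 1 (0.0559). MYC, a transcription factor that drives many glycolytic genes, fell (−0.89 ± 0.12, adjusted p = 0.00132), as did the glucose sensor MLXIP (−0.76 ± 0.14). TXNIP, which restrains glucose uptake, held 12.38, 12.64 and 12.64 and then 11.97, 11.89 and 12.41 (−0.46 ± 0.15, adjusted p = 0.0625). It passed as a fall without unstimulated replicate 1 (−0.55, adjusted p = 0.0476) or PMA replicate 3 (−0.62, adjusted p = 0.00705).

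Targets of the hypoxia-inducible factors outside glycolysis went both ways: of 18, 4 rose and 5 fell (50% past the threshold, against 26.4% of all genes tested). The haem-degrading enzyme HMOX1 (3.10 ± 0.31, adjusted p = 0.000300), carbonic anhydrase CA12 (1.39 ± 0.25) and the peptide hormone ADM (1.29 ± 0.19) rose. The mitophagy receptor BNIP3 fell from 10.23, 10.96 and 10.94 to 8.65, 8.46 and 9.04 (−2.00 ± 0.23, adjusted p = 0.000597). The collagen hydroxylase P4HA1 (−1.20 ± 0.28), the stress gene DDIT4 (−1.15 ± 0.30), the MYC antagonist MXI1 (−0.99 ± 0.17) and the histone demethylase KDM3A (−0.93 ± 0.23) fell too. P4HA1, DDIT4 and KDM3A lost their calls without unstimulated replicate 2, unstimulated replicate 3 or PMA replicate 1, and DDIT4 also without PMA replicate 2 (adjusted p 0.0561 to 0.0997). The number that fell was 7 without unstimulated replicate 1 and 2 without unstimulated replicate 2, unstimulated replicate 3 or PMA replicate 1. Without PMA replicate 3, 6 rose. VEGFA did not pass (1.28 ± 0.69, adjusted p = 0.232) and did so as a rise without PMA replicate 3 (2.07, adjusted p = 0.00867): it held 8.06, 9.64 and 9.57 and then 11.08, 11.24 and 8.78, low on unstimulated replicate 1 and PMA replicate 3 as HK2 and PFKFB4 were.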

How the data were processed

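Total RNA of 6 THP-1 samples was labelled with biotin and hybridised to single-channel Affymetrix arrays, per the labels' protocols. The authors' deposited table holds log2 values for 33297 probe sets; RMA and Partek were used, per the submitters' processing notes, with no version given in the sources used here. RMA's quantile step makes arrays alike, and its background step shrinks differences of dim probe sets. Names came from the platform annotation, with gene IDs matched to the RefSeq gene table (GRCh38.p14) for 19429 of 19460 probe sets with a single symbol. The brightest by mean over the 6 arrays stood for a gene, with no filter on dim probe sets, giving 18417 genes. TPI1 had 2 such probe sets and every other measured member 1.

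The PMA group was compared with the unstimulated group in R 4.3.3 by limma 3.58.1 (lmFit, eBayes, a term for group alone, 7.71 total degrees of freedom). P-values were adjusted by Benjamini-Hochberg over the 18417 genes, with a threshold of 0.05. The median standard error was 0.115. Precision is limited by the 3 arrays per group. The fit was tested on simulated data. Exact permutation tests used scipy 1.17.1, and figures were drawn with matplotlib 3.10.9. The members and lists were chosen with earlier results of these data known. Named were all 37 members and, of the other lists, genes past the threshold with a change of at least 1.5-fold, plus HIF1A, EPAS1, MYC and TXNIP whatever their values (1 further gene that the rule took whatever its value is not analysed here); VEGFA, NDRG1, BHLHE40, PLIN2, SLC2A14 and the marker genes were named after their values were seen. A planned comparison of protein sequences was not run. Alternatives covered the scaling, a filter on dim genes, the probe set, the variance model, a replicate block, the thresholds and the arrays.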

Additional observations from a re-analysis of the deposited data

How the results depend on the processing

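The counts of members that rose (4) and fell (8) stayed within 1.5 times of these values under every alternative run, except the following. Against a 1.5-fold change with limma's treat, 1 member rose (HK1) and 2 fell (SLC2A5 and ALDOC). With unstimulated replicate 1 and PMA replicate 3 both left out, 8 rose and 10 fell. Under that setting 34.3% of all genes passed, against 26.4% with all arrays. Leaving out each array in turn gave 4 to 6 rises and 7 to 9 falls. The separated isoform pairs numbered 17 to 24 in these runs. Leaving out an array cannot make separated groups overlap, so this number could not go below the 17 of all arrays. The range therefore does not show whether the 17 depend on single arrays. The log2 fold change of SLC2A3, 0.18 in all arrays, ran from −0.49 (without unstimulated replicate 1, adjusted p = 0.0382) to 0.56 when single arrays were left out. It was −0.40 with both arrays left out (adjusted p = 0.0284) and −0.21 with array weights (0.706). With the replicate number as a block, the members that rose numbered 4 and those that fell 7: LDHA lost its call (adjusted p = 0.0534). Of the other named genes, TXNIP gained a call under the block (0.0443) and CD79A lost one (0.0712). Deviations of arrays with the same number from their group means correlated at 0.18, −0.02 and 0.05 between the groups. Those with different numbers correlated at −0.15 to 0.11. With 3 arrays a group, these values cannot settle whether the numbers pair the samples, and the main fit did not use the numbers. Of all genes, 4854 passed; 2843 did with each gene's own variance alone, 2824 at an adjusted p of 0.01 and 1125 with treat. Over members and other named genes, 119 single results lost and 32 gained a call. A further 2, both of SLC2A3, gained a call with the other sign. The remaining 1430 kept their side of the threshold, some of those not past it with the other sign. With 3 arrays a group, small differences in dim or variable genes such as ENO2 and PDK4 could not be resolved.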
